A study of Sus scrofa with 2 samples.

Results

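The receptor tyrosine kinases KIT, PDGFRA, PDGFRB and MET and the ligands KITLG, PDGFA, PDGFB, PDGFC and HGF were examined in pig RNA-seq data. The tissue was the cochlear lateral wall with the stria vascularis (SV). These 9 genes were found by gene symbol, and where the table gave no symbol by the Ensembl name of the feature. KITLG stood in the table under its older symbol KITL, and PDGFRB and MET were each listed as 2 features, so that the genes correspond to 11 of the 27622 features deposited. RNA of dissected lateral walls containing the SV was sequenced as a single MITF R/r library and a single MITF r/r library, called R/r and r/r below. The study calls these samples SVs, and where SV names a sample below it stands for this lateral wall tissue. MITF is the transcription factor that directs the melanocyte lineage, r is its mutant allele in white, deaf Rongchang pigs, both genotypes carry r, and no R/R library was analysed here. The stage is embryonic day 85 in the text of the study and postnatal day 1 in the sample labels. Whether each library came from 1 animal or from a pool is not given in the sources used here.

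KIT is the receptor of KITLG (stem cell factor), and signalling through it is needed for the migration and survival of melanocyte precursors, the lineage that gives rise to the intermediate cells of the SV. In pigs, structural changes at the KIT locus are known for white coat colour. PDGFRA and PDGFRB are close relatives of KIT that bind PDGF ligands and are known from mesenchymal cells and from pericytes. MET binds HGF, a factor secreted mainly by mesenchymal cells that acts on epithelial cells and also on melanocytes. Mutations in HGF and in MET are known to cause deafness. All of these receptors signal through shared adaptors to the RAS and ERK kinases and to PI3K and AKT.

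Expression was given as RPKM, a read number scaled by gene length and by library size, so that levels of different genes can be compared per length. Whole reads were worked out from the ratios of low values. The totals recovered in this way were 15829244 reads (R/r) and 14258672 reads (r/r). Differences are log2 ratios of RPKM, r/r over R/r, and 95% intervals are exact Clopper-Pearson intervals on the reads, and take in no error but that of counting. Since each genotype had 1 library, there was no replicate check and no test, and every difference is one between these libraries, not between the genotypes. Intervals for differences were computed for 15 pairs of genes and 2 pairs of features and were not adjusted for their number. MITF itself, over its 3 features, had 656 reads with R/r and 424 with r/r (log2 ratio -0.48, 95% interval -0.66 to -0.30). The values are per gene and do not separate its promoters. Counting reads per exon in its RNA-seq, the study reported the exon specific to the melanocyte isoform MITF-M as far lower with r/r. By PCR and immunoblot it detected no MITF-M in r/r cochlea. The ratio per gene is therefore no measure of that isoform.

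None of the receptors and ligands was 2-fold apart between the SVs, and HGF, MET, PDGFRA and PDGFC differed beyond counting error. All 11 features had an RPKM value of at least 1, and 0 of them were at least 2-fold apart, against 3.99% of the 16331 genes compared (2.2% lower and 1.78% higher), those above 0 in both SVs with RPKM of at least 1 in either. The log2 ratio was below 0 in 8 features and above 0 in 3, and its median was -0.18, beside -0.02 over all genes compared and 53.3% of these genes with a ratio below 0. The 95% interval left out 0 in 6 features, 5 below and 1 above, against 25.6% of all genes compared (14.4% below and 11.2% above). The interval narrows with depth, and among the 6 features with at least 1000 reads it left out 0 in 4, 3 below and 1 above, against 41.8% of the 5243 genes of this depth (22.2% below and 19.7% above).

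**Figure D1:**
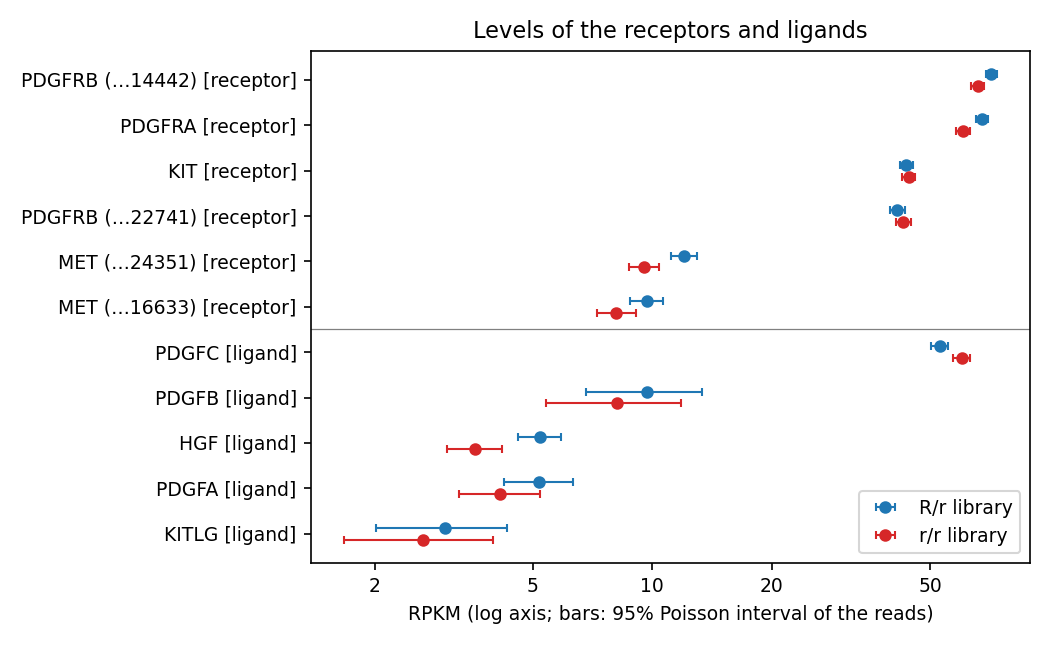
RPKM of each receptor and ligand feature on a log axis, with blue points for the R/r library and red points for the r/r library; bars are 95% Poisson intervals of the reads and cover counting error only. The receptors KIT, PDGFRA and PDGFRB and the ligand PDGFC lie between 41.3 and 71.3 RPKM in both libraries, and the other features lie between 2.64 and 12.03 RPKM.

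Among the receptors, KIT (ENSSSCG00000008842) had 43.6 RPKM with R/r and 44.2 RPKM with r/r, from 2978 and 2719 reads. Its log2 ratio was 0.02 with an interval of -0.06 to 0.09, which corresponds to a change of -3.81% to 6.80% and holds 0. Scaling to TPM, a scale on which both libraries have the same sum, turned the sign of the KIT ratio, to -0.02. Genes with a lower ratio than KIT made up 47.6% of the 788 genes as deep or deeper in reads, so that KIT sat near the middle of them.

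KIT was read beside a list of melanocyte genes, most of which were lower with r/r. DCT, an enzyme of melanin synthesis, had 171 RPKM with R/r and 1.19 RPKM with r/r (log2 ratio -7.17, interval -7.52 to -6.84). KIT was thus at 0.254 times the level of DCT with R/r and at 37.1 times with r/r. Against EDNRB, the endothelin receptor of melanocyte precursors, KIT was at 2.51 times the level with R/r and at 25.8 times with r/r. The interval of the log2 difference was 6.85 to 7.54 against DCT and 2.91 to 3.84 against EDNRB. Of the 16 genes on the melanocyte list, 12 were compared and 8 of them were at least 2-fold lower, against 2.2% of all genes, and their median log2 ratio was -4.13. Its defining markers TYR, with 11.8 and 0.176 RPKM, and PMEL, with 15.5 and 0.513 RPKM, were among the 8. The others were TRPM1, SLC45A2, RAB38, EDNRB, GPR143 and DCT. All of the 8 but GPR143 were already reported by the study as differing between these libraries. The list was written with such results known. Its share and the ratios of KIT to DCT and EDNRB therefore describe these genes and are no independent check. The intervals of 3 compared genes of the list held 0, as that of KIT did. They were RAB27A, with 6.09 and 6.01 RPKM (log2 ratio -0.02, interval -0.24 to 0.21), SOX10, with 5.20 and 4.503 RPKM (-0.21, interval -0.58 to 0.16), and OCA2, with 2.47 and 2.54 RPKM (0.04, interval -0.78 to 0.87). MLANA had 12.03 RPKM with R/r and was listed at 0 with r/r. The summed level of the list was 370 and 59.7 RPKM, of which MITF (its highest feature) gave 51.7 and 37.8 RPKM. The study had already listed these KIT values, among melanocyte markers that remained with r/r. From these and electron microscopy of prenatal SVs, it held that intermediate cells remained at the embryo stage and were lost around birth. In RNA of a whole tissue alone, fewer cells of a type and less RNA per cell cannot be told apart.

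Mast cells are another cell type known for high KIT, and those of their markers that were found were low, GATA2 apart. HDC, which makes histamine, had 1.45 RPKM with R/r and 1.18 RPKM with r/r, and MS4A2, a chain of the IgE receptor, had 0.495 and 0.257 RPKM. FCER1A and HPGDS were listed at 0 in both SVs. CPA3, CMA1, TPSAB1 and TPSB2 were not found by name, so their levels are not known. The part of mast cells in the KIT values was not tested. GATA2, a transcription factor that is not restricted to mast cells, made up most of the summed level of the list, with 47.5 and 51.7 RPKM. Of the 10 genes, 6 were found and 2 were compared, with a median log2 ratio of -0.09.

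PDGFRA (ENSSSCG00000008841), the receptor for PDGF-A and PDGF-C, had 67.7 RPKM with R/r and 60.6 RPKM with r/r, from 3159 and 2546 reads. The log2 ratio was -0.16 (-0.24 to -0.08), a change of -10.5% with limits of -15.1% and -5.70%. Of the 786 genes as deep or deeper in reads, 12.5% had a lower ratio. PDGFRA and KIT are neighbours in the later pig assembly Sscrofa11.1, with KDR, a receptor of VEGF, on the other side of KIT. KDR had 60.6 and 60.04 RPKM (log2 ratio -0.01, interval -0.10 to 0.08). The log2 ratio of PDGFRA was 0.18 below that of KIT (difference -0.18, interval -0.29 to -0.07), a difference that does not depend on how the libraries are scaled.

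PDGFRB, the main receptor of PDGF-B, was split over features that differed from each other. ENSSSCG00000014442 had 71.3 RPKM with R/r and 65.9 RPKM with r/r (log2 ratio -0.11, interval -0.19 to -0.04). ENSSSCG00000022741, which carries no symbol in the table and is PDGFRB by its Ensembl name, had 41.3 and 42.9 RPKM (log2 ratio 0.05, interval -0.04 to 0.14). The ratio of the first was lower than that of the second by more than counting error (difference -0.17, interval -0.28 to -0.05). With the reads of both summed, 5501 and 4788, the log2 ratio was -0.05 with an interval of -0.11 to 0.01 that holds 0. Whether the features are parts of 1 gene in an incomplete assembly or share reads was not tested, so the direction for PDGFRB is uncertain.

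MET was the lowest of the receptors and the one with the largest difference. ENSSSCG00000024351, named MET by Ensembl only, had 12.03 RPKM with R/r and 9.55 RPKM with r/r (log2 ratio -0.33, interval -0.50 to -0.17). ENSSSCG00000016633 had 9.68 and 8.12 RPKM (log2 ratio -0.25, interval -0.47 to -0.04). Both features were lower with r/r, and their ratios did not differ beyond counting error (difference 0.08, interval -0.19 to 0.35). Summed over both, 1133 and 827 reads gave a log2 ratio of -0.30 (-0.43 to -0.17), and 4.61% of genes as deep or deeper had a lower ratio. The ratio of MET, by its higher feature, was below that of KIT (difference -0.35, interval -0.54 to -0.17).

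**Figure D2:**
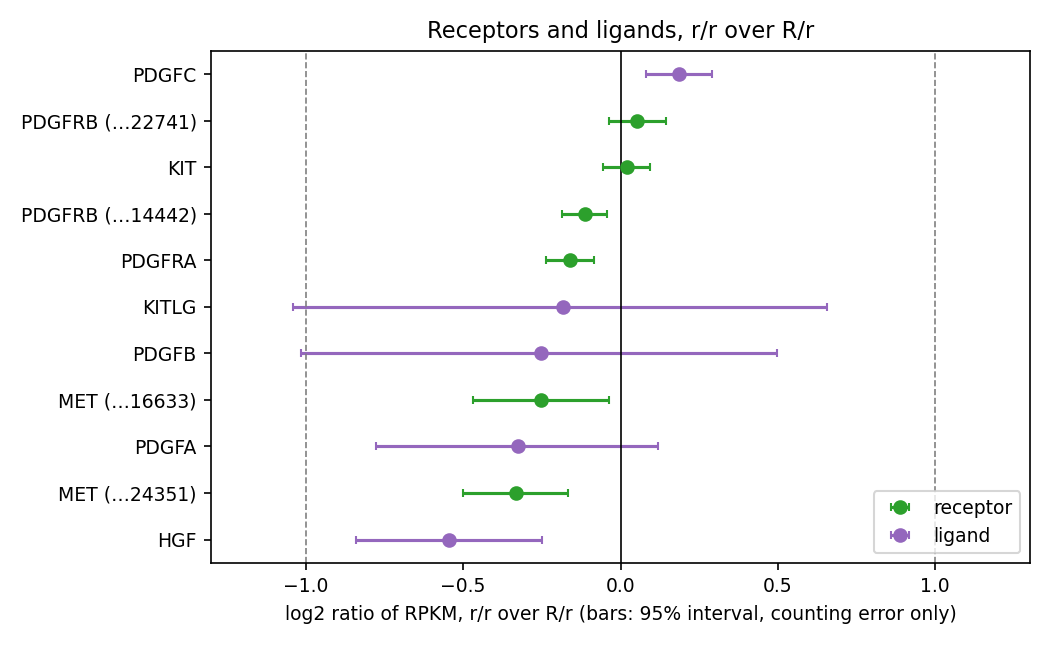
Log2 ratio of RPKM, r/r over R/r, of each receptor (green) and ligand (purple) feature, with 95% intervals that cover counting error only; dashed lines mark 2-fold. All points lie between -0.54 (HGF) and 0.19 (PDGFC), and the intervals of KITLG and PDGFB, with 52 and 65 reads, are the widest.

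Among the ligands, PDGFC stood apart in level and in direction. PDGFC (ENSSSCG00000024960), a ligand of PDGFRA that is secreted in a latent form, had 52.8 RPKM with R/r and 60.1 RPKM with r/r, from 1474 and 1510 reads. Its log2 ratio of 0.19 (0.08 to 0.29) was the only one of the 11 with an interval above 0, and 89.6% of the 1900 genes as deep or deeper in reads had a lower ratio. PDGFC was at 10.16 times the level of PDGFA and 5.45 times that of PDGFB with R/r, and at 14.5 and 7.37 times with r/r. Set against its receptor PDGFRA, PDGFC was at 0.780 times the level with R/r and at 0.991 times with r/r (log2 difference 0.35, interval 0.22 to 0.48).

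The other PDGF ligands were low and their intervals held 0. PDGFA (ENSSSCG00000007541) had 5.20 RPKM with R/r and 4.15 RPKM with r/r (log2 ratio -0.33, interval -0.78 to 0.12) from 103 and 74 reads. PDGFB (ENSSSCG00000021641), the ligand that endothelial cells use to attract pericytes, had 9.70 and 8.15 RPKM (log2 ratio -0.25, interval -1.01 to 0.50) from 37 and 28 reads. The ratio of PDGFC exceeded that of PDGFA (difference 0.51, interval 0.05 to 0.98), while against PDGFB the interval of the difference, -0.32 to 1.21, held 0.

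HGF and KITLG were at the low end of the levels. HGF (ENSSSCG00000015403) had 5.21 RPKM with R/r and 3.57 RPKM with r/r, from 254 and 157 reads. Its log2 ratio of -0.54 (-0.84 to -0.25), a level 1.46-fold lower, was the lowest of the 11, and 1.73% of the 8434 genes as deep or deeper in reads had a lower one. HGF and its receptor MET were thus both lower with r/r, and the ratio of MET to HGF, 2.31 and 2.67, did not differ beyond counting error (log2 difference 0.21, interval -0.13 to 0.55). KITLG (ENSSSCG00000000922) had 3.003 and 2.64 RPKM, from 29 and 23 reads. Its log2 ratio of -0.18 had an interval of -1.04 to 0.66, so that no difference was detectable at this depth, and 2-fold lower is not left out. KIT stood at 14.5 times the level of KITLG with R/r and 16.7 times with r/r (log2 difference 0.20, interval -0.64 to 1.06).

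In order of level the R/r SV had PDGFRB (its higher feature), PDGFRA, PDGFC, KIT, the other PDGFRB feature, MET (its higher feature), PDGFB, the other MET feature, HGF, PDGFA and KITLG. The r/r SV had the same order except that PDGFA came before HGF. By the Poisson intervals of the reads, PDGFRA lay clear of PDGFC with R/r and overlapped it with r/r, whereas PDGFRB and PDGFRA overlapped with R/r and were apart with r/r. In both SVs the intervals of KIT and the lower PDGFRB feature overlapped, as did that of PDGFB with either MET feature, those of HGF and PDGFA, and those of KITLG and the ligand before it.

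**Figure D3:**
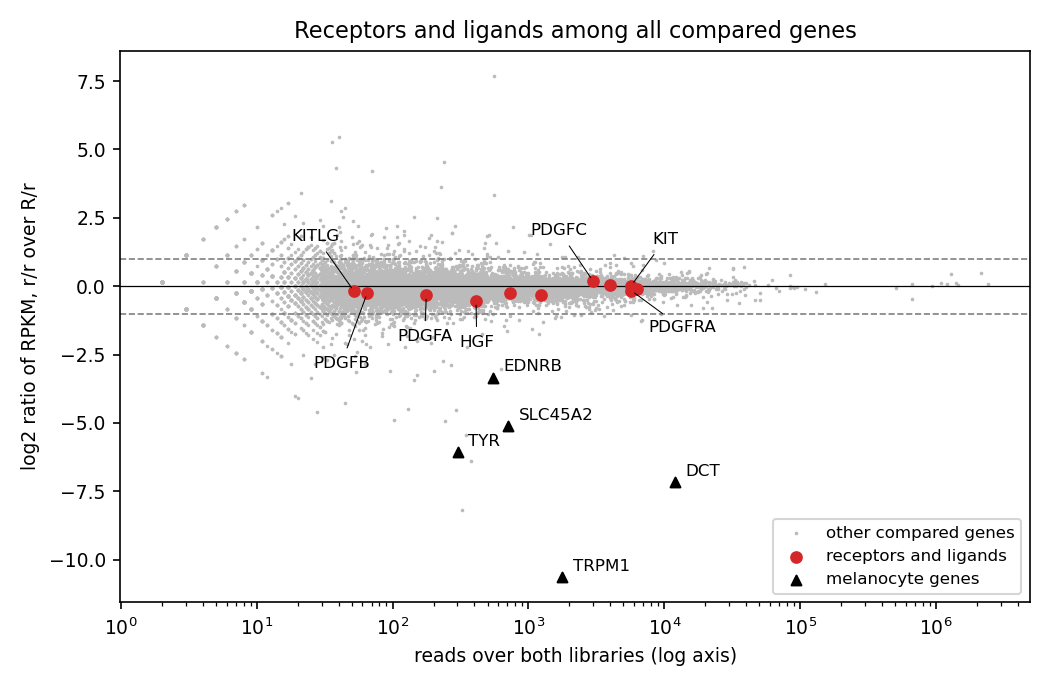
Log2 ratio of RPKM, r/r over R/r, against the reads over both libraries on a log axis, for the 16331 genes compared (grey), the receptors and ligands (red) and 5 melanocyte genes (black triangles). The receptors and ligands lie within the dashed 2-fold lines, while DCT lies at -7.17 and EDNRB at -3.34.

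A list of 58 receptor tyrosine kinases, which holds KIT, PDGFRA, PDGFRB and MET, was read as well. Of the 58, 53 were found and 38 had RPKM of at least 1 in both SVs. FGFR2 was highest with 121 RPKM with R/r and 131 RPKM with r/r, followed by the collagen receptors DDR1 (111 and 110 RPKM) and DDR2 (87.0 and 96.2 RPKM). ERBB2 had 72.3 and 70.7 RPKM, and FGFR4 had 63.7 and 71.8 RPKM. In the R/r SV, PDGFRB ranked 5, PDGFRA 6, KIT 13 and MET 21 of the 53, and with r/r they ranked 6, 9, 13 and 24. Their summed level, with the higher feature of each gene, was 16.0% of that of all 53 with R/r and 14.9% with r/r.

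No kinase of this list was 2-fold apart. Its median log2 ratio was -0.12 over 40 genes compared. The interval lay below 0 in 12 genes (30%) and above 0 in 7 (17.5%), beside 14.4% and 11.2% of all genes compared. Among genes with at least 1000 reads these shares were 22.2% and 19.7%, and the list was not matched for depth. PDGFRA, PDGFRB and MET, by their higher features where there are 2, are among the 12, so the list is not independent of them. ALK had the lowest ratio, -0.49 (-0.92 to -0.06), with 5.21 and 3.71 RPKM, and RET the highest, 0.37 (0.05 to 0.70), with 1.80 and 2.33 RPKM. Of the receptors expressed in both SVs, 25 had a lower ratio than KIT and 12 a higher one. The nearest to KIT in log2 ratio over these libraries were EPHB2 (0.02), AATK (0.03) and DDR1 (-0.01).

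**Figure D4:**
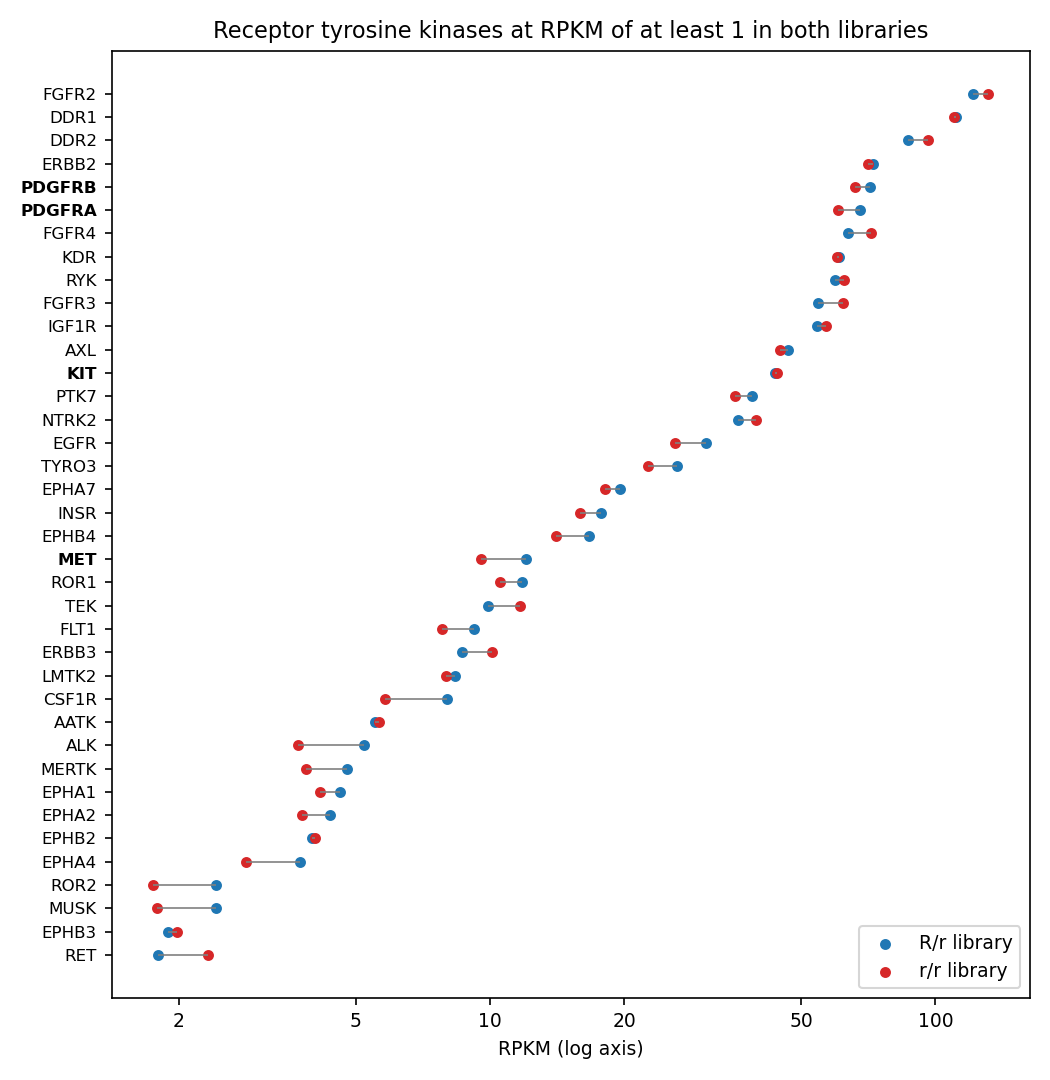
RPKM on a log axis of the 38 receptor tyrosine kinases with RPKM of at least 1 in both libraries, in the order of the R/r library (blue), with the r/r library in red and the receptors described here in bold. Most pairs of points lie close together, with KIT at 43.6 and 44.2 RPKM and MET at 12.03 and 9.55 RPKM.

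Of a list of 8 receptors and ligands related to these, 7 were found and 5 were compared. CSF1R, the receptor of macrophages and the neighbour of PDGFRB in Sscrofa11.1, had 8.02 RPKM with R/r and 5.81 RPKM with r/r (log2 ratio -0.47, interval -0.70 to -0.24). It was the only 1 of the 5 whose interval left out 0 (20% below and 0% above, against 14.4% and 11.2% of all genes compared), and their median was -0.24. FLT3LG was the highest of them, with 19.1 and 19.4 RPKM and a ratio of 0.03, while its receptor FLT3 had 0.0211 and 0.0468 RPKM from 1 and 2 reads. PDGFD, the remaining PDGF ligand, had 12.9 and 9.996 RPKM (log2 ratio -0.36, interval -0.85 to 0.12). Macrophage markers other than CSF1R stood beside it with intervals that held 0. The list of 9 was found whole, 8 were compared with a median of -0.19, and the summed level was 59.5 and 55.5 RPKM. Its defining markers were CD68 with 7.22 and 6.63 RPKM and AIF1 with 18.2 and 19.5 RPKM.

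Proteases that activate or shed the ligands, and their inhibitors, differed by less than 2-fold. Of 12 genes 11 were compared, the median was -0.04, and 0 were at least 2-fold apart. The interval lay below 0 in 5 (45.5%, against 14.4% of all genes compared) and above 0 in 0 (against 11.2%). Among genes with at least 1000 reads these shares were 22.2% and 19.7%, and the list was not matched for depth. ST14 (matriptase), a protease that activates HGF, had the lowest ratio, -0.36 (-0.56 to -0.17), with 12.998 and 10.1 RPKM. The other intervals below 0 were those of MMP14 (log2 ratio -0.26), the inhibitor SPINT1 (-0.25), ADAM10 (-0.22) and ADAM17 (-0.20). SPINT2, an inhibitor of HGF activation, was by far the highest of the list, with 420 RPKM with R/r and 422 RPKM with r/r (log2 ratio 0.01, interval -0.05 to 0.07). PLAT (tissue plasminogen activator), which activates PDGF-C, had 37.9 and 39.4 RPKM (log2 ratio 0.06, interval -0.05 to 0.16). The highest ratio was that of PLAU, 0.11 (-0.27 to 0.50). With a minimum RPKM of 5 the median of this list became -0.20.

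Downstream of the receptors, the adaptors (15 compared) had a median of -0.01, beside -0.02 over all genes. Their interval lay below 0 in 5 (33.3%) and above 0 in 0, against 14.4% and 11.2% of all genes compared. For genes with at least 1000 reads these shares were 22.2% and 19.7%, and the pathway lists were not matched for depth. FYN was the highest of them with 86.1 and 87.6 RPKM, the scaffold GAB2 had the lowest ratio, -0.58 (-0.88 to -0.29), with 4.59 and 3.07 RPKM, and LYN the highest, 0.20 (-0.0015 to 0.40). The PI3K and AKT genes (7 compared of 10) had a median of -0.04, 2 intervals below 0 (28.6%) and 0 above. PIK3R2, a regulatory subunit of PI3K, had the lowest ratio, -0.16 (-0.27 to -0.05), and PIK3R1 the highest, 0.08. The RAS and ERK cascade (11 compared of 12) had a median of 0.02 with 1 interval on each side (9.09% each). RPS6KA3, a kinase activated by ERK, had the highest ratio, 0.18.

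Feedback inhibitors and targets of ERK held the largest single differences of the pathway. The inhibitors and ubiquitin ligases (14 compared of 15) had a median of -0.02, and the interval lay below 0 in 1 (7.14%) and above 0 in 0, against 14.4% and 11.2% of all genes compared. That gene was DUSP4, a phosphatase that is itself induced by ERK, with 9.56 RPKM with R/r and 4.85 RPKM with r/r (log2 ratio -0.98, interval -1.16 to -0.80). DUSP6, another phosphatase of this kind, had 12.3 and 11.9 RPKM (log2 ratio -0.06, interval -0.37 to 0.25). SPRED1 was the highest of this list with 28.3 and 28.7 RPKM, and SPRY4 had the highest ratio, 0.23 (-0.26 to 0.72). The ERK-induced genes (11 compared) had a median of 0.01, 1 interval below 0 (9.09%) and 3 above (27.3%). JUN was highest in ratio, 0.87 (0.69 to 1.05), with 22.6 and 41.2 RPKM, and FOS followed with 9.19 and 13.1 RPKM (log2 ratio 0.52, interval 0.21 to 0.83). ETV4 had the highest level, 38.4 and 38.6 RPKM, and MYC the lowest ratio, -0.33 (-0.62 to -0.05). In none of these lists was a gene at least 2-fold apart.

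**Figure D5:**
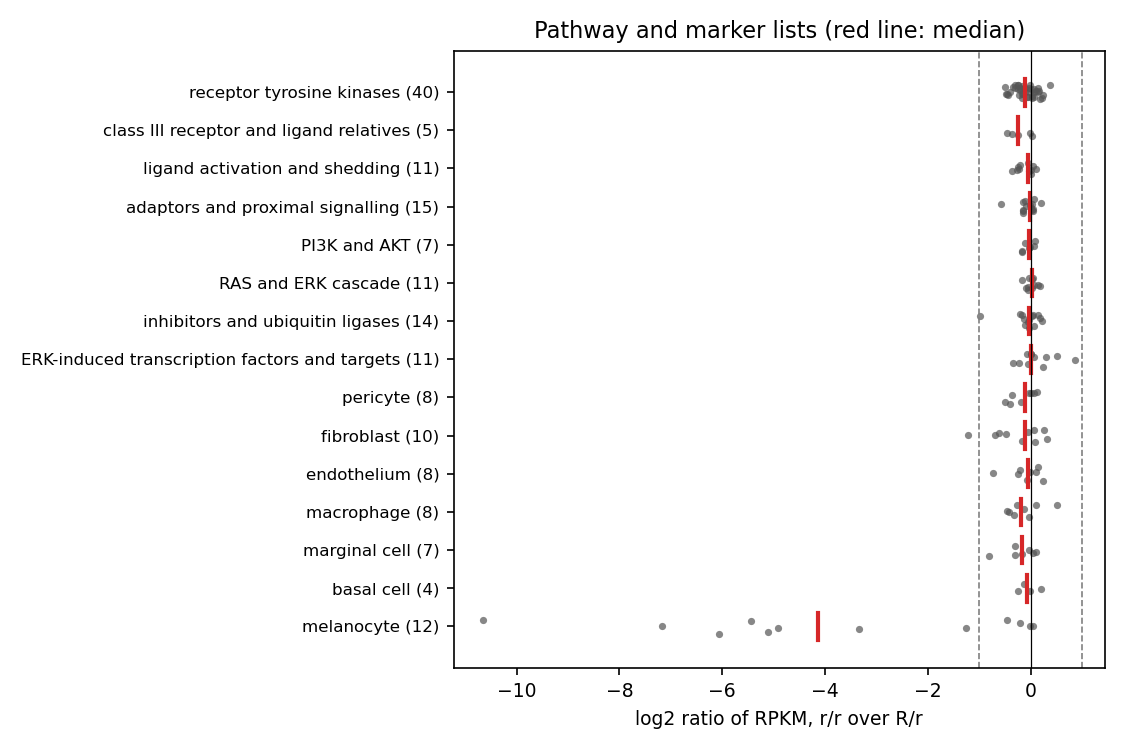
Log2 ratio of RPKM, r/r over R/r, of each compared gene of the pathway lists and of cell type marker lists, with the number of genes in brackets; red lines are medians and dashed lines mark 2-fold. The medians of the pathway lists lie between -0.24 and 0.02, and that of the melanocyte list lies at -4.13.

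Markers of the cell types in which these receptors are known were given beside them, and their part in the values above was not tested. Shares of intervals below and above 0 in these lists stand against 14.4% and 11.2% of all genes compared. With at least 1000 reads the shares over all such genes were 22.2% and 19.7%, and the marker lists were not matched for depth. For fibroblasts (11 genes, 10 compared) the median was -0.11, with 5 intervals below 0 (50%) and 3 above (30%). COL1A1 had 89.1 RPKM with R/r and 38.5 RPKM with r/r (log2 ratio -1.21, interval -1.51 to -0.92), COL3A1 had 34.5 and 30.5 RPKM, and DCN had 214 and 153 RPKM. These are among the 5 below. The 3 above were LUM (0.33, interval 0.25 to 0.40), TBX18 (0.25, interval 0.22 to 0.29) and VIM (0.09, interval 0.08 to 0.11). The summed level of the list was 3100 and 3042 RPKM, and VIM made up most of it. For pericytes (10 genes, 8 compared) the median was also -0.11, with 1 interval below 0 (12.5%) and 0 above. RGS5 had 84.9 and 85.04 RPKM (log2 ratio 0.00, interval -0.14 to 0.14), CSPG4 had 0.513 and 0.409 RPKM and KCNJ8 had 4.21 and 3.18 RPKM. The summed level was 167 and 154 RPKM.

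For endothelium (10 genes, 8 compared) the median was -0.04 with 4 intervals below 0 (50%) and 1 above (12.5%). PECAM1 had 69.1 and 59.9 RPKM and KDR had 60.6 and 60.04 RPKM, CDH5 was not found, and the sum was 370 and 362 RPKM. The epithelial marginal cells, for which 7 of 9 genes were compared, had a median of -0.17 with 4 intervals below 0 (57.1%) and 1 above (14.3%). KCNE1 had 278 and 248 RPKM and SLC12A2 had 312 and 334 RPKM, KCNQ1 was not found, and the sum was 1948 and 1471 RPKM, of which ATP1B2 gave 915 and 522 RPKM. Basal cells (4 compared of 7) had a median of -0.07 with 2 intervals below 0 (50%) and 1 above (25%), CLDN11 with 840 and 706 RPKM, TJP1 with 71.7 and 71.5 RPKM, SLC2A1 not found, and a sum of 1171 and 1022 RPKM. The Schwann cell list (4 compared of 9) had a median of -0.08. MBP was not found, and S100B made up nearly all of its sum of 6120 and 6288 RPKM. Among the defining markers, none of those of marginal cells, basal cells and endothelium that were found was at 0.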

How the data were processed

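The authors filtered paired reads of 100 bp, aligned them to Sscrofa10.2 with TopHat (TopHat2 2.0.7 in the submitters' processing notes) and deposited RPKM values for 1 library of each genotype; the counting program and the annotation are not given in the sources used here. Another 2 columns without headings, filled for 22 genes with differences and ratios of the same values, were not used.

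Log2 ratios were taken without a pseudocount. Reads were recovered as the smallest whole numbers that gave both RPKM values and a whole gene length (tolerance 0.01), with 1500 genes used to find the library totals. True reads may be a multiple of them, which would narrow the intervals. Lengths became whole for 99.6% of 19347 features, after multiples of the reads were tried. Among the genes used to find the totals, lengths were whole without multiples for 62.9% (R/r) and 66% (r/r). With many multiples tried, a length can come out whole by accident, so the first share is no independent check. A multiple accepted in error would make the intervals too narrow. Differences between log2 ratios of a pair of genes have exact conditional intervals of the odds ratio. The recovery was tested on simulated data built only from features whose lengths had become whole. Where features share a symbol, lists use the one with the highest mean RPKM.

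Members and the 17 lists were chosen with earlier results of these data known. Named are the members, MITF, and of the other receptor kinases the 5 highest, any at least 2-fold apart and the 3 nearest to KIT. Of each pathway list the highest gene, the lowest and highest ratio and any at least 2-fold apart are named, and of each marker list the first 3 genes and any at least 2-fold apart. Other genes named, among them DUSP6, FOS, PLAT, PDGFD and the neighbours, were chosen after their values were seen. Some genes that this rule names are not reported here. The file named 16376 features and 1794 more were named through Ensembl; KITL, DDR and APN were read as KITLG, DDR1 and ANPEP through RefSeq synonyms. Alternatives were other pseudocounts, minimums, scalings and fold thresholds. Scripts ran under Python 3.11.15 with scipy 1.17.1 for the intervals, pandas 2.3.3 and numpy 2.4.6 for the tables and matplotlib 3.10.9 for the plots.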

Additional observations from a re-analysis of the deposited data

How the results depend on the processing

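No paired analysis was possible because the R/r and the r/r group hold a single sample each. The count of receptor and ligand features at least 2-fold apart was 0 under every pseudocount, minimum, scaling and fold threshold tried, 1.5-fold included, and all 55 of their log2 ratios under other pseudocounts and scalings stayed within the counting interval. The ratio of KIT ran from -0.02 to 0.04. Summing the PDGFRB features, chosen after seeing the data, moved the log2 ratio of the lower PDGFRB feature (ENSSSCG00000022741) from 0.05 to -0.0495. The 651 genes at least 2-fold apart over the whole table numbered 317 once a pseudocount of 1 was added, 1483 without a minimum, 178 and 87 with minimums of 5 and 10, and 1771 and 130 at 1.5-fold and 4-fold; minimums and thresholds act by construction, and the cause was not tested for the pseudocount. Of 112 list medians 7 moved by over 0.1. With no minimum the melanocyte list gave -3.34, the Schwann cell list -0.21 and the class III receptor and ligand relatives -0.0192. With a minimum of 5 the melanocyte list gave -4.92 and the ligand activation list -0.20, with a pseudocount of 1 the melanocyte list gave -3.10, and under TPM the Schwann cell list gave -0.24. Depth limits KITLG and PDGFB, whose intervals reach 2-fold.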

Other observations

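Genes next to the receptors and ligands in the order of Sscrofa11.1 were read after the values of the members were known. HGF lies between CACNA2D1, a subunit of voltage-gated calcium channels, and SEMA3C, a secreted guidance factor, and both were lower with r/r as HGF was. CACNA2D1 had 11.0 RPKM with R/r and 7.40 RPKM with r/r (log2 ratio -0.57, interval -0.76 to -0.39). SEMA3C had 2.14 and 1.01 RPKM (log2 ratio -1.08, interval -1.60 to -0.59). PCLO, on the far side of CACNA2D1, had 0.359 and 0.503 RPKM, a ratio of 0.49 with an interval of -0.10 to 1.08 that holds 0.

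Beside MET, CAV1 (caveolin), a coat protein of caveolae, had 19.7 and 15.4 RPKM (log2 ratio -0.36, interval -0.52 to -0.20) close to that of MET, while CAPZA2 (its higher feature) and CAV2 had ratios of -0.09 and -0.11 with intervals that hold 0. KIT lies between PDGFRA (-0.16) and KDR (-0.01). GSX2, the gene beyond PDGFRA, was listed at 0 in both SVs, and CHIC2 beyond it had 11.1 and 12.3 RPKM (log2 ratio 0.14, interval -0.04 to 0.32).

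Of the genes directly next to the other members, CTSO beside PDGFC, with 3.41 and 4.31 RPKM (log2 ratio 0.34, interval 0.03 to 0.65), TMTC3 beside KITLG, with 10.6 and 12.3 RPKM (0.21, interval 0.0026 to 0.42), and CSF1R beside PDGFRB, with 8.02 and 5.81 RPKM (-0.47, interval -0.70 to -0.24), also had intervals that left out 0. Among those at the second place, DNAAF5 near PDGFA, with 6.68 and 4.52 RPKM (-0.56, interval -0.86 to -0.28), had one too. The intervals of DUSP6 beside KITLG (-0.06), PRKAR1B beside PDGFA (0.38) and GLRB beside PDGFC (-0.03) held 0. So did those of CEP290, FAM20C, GRIA2, SLC6A7 and ST7 at the second place. Over all genes compared, 25.6% of intervals left out 0, and whether neighbours change together was not tested.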
